A study of Mus musculus with 16 samples.

Results

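The genes of the lysosomal enzymes whose loss causes the mucopolysaccharidoses (MPS) were examined in murine MPS I fibroblasts treated with the flavonoids genistein (G) and kaempferol (K). The members were the 9 genes Idua, Ids, Sgsh, Naglu, Hgsnat, Galns, Glb1, Arsb and Gusb, taken as the annotated transcript clusters of the array that carry these symbols. Of them, 8 had 1 transcript cluster each, and these 8 stand among the 22206 annotated clusters of the array, while Glb1, the beta-galactosidase gene, was not analysed here. Members moved in both directions. Hgsnat rose with 120 µM G and 120 µM K, Naglu rose with 120 µM K and both mixtures, Sgsh rose with 120 µM G and the 120 µM mixture, Gusb fell with both doses of G, and Galns and Arsb fell with 120 µM K. Most of these calls depended on single arrays or on the control. Fits of only the 4 arrays compared called members with 120 µM G and in no other condition.

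RNA was taken from primary skin fibroblasts grown from tails of MPS I mice of 6 to 8 weeks and measured on Clariom S mouse arrays. The groups were 60 or 120 µM G, 60 or 120 µM K, both compounds mixed 1:1 to a total of 60 or 120 µM, and the solvent controls 0.05% and 0.1% DMSO, each for 24 h with 2 arrays per group (16 arrays in 8 groups). A 60 µM mixture thus held 30 µM of each flavonoid and a 120 µM mixture 60 µM of each. The single flavonoids were set against 0.05% DMSO and their mixtures against 0.1% DMSO, although the labels name 0.05% DMSO as the solvent of every treatment. Every group, the DMSO controls included, consisted of MPS I cells, and no wild-type group was analysed. Neither the strain nor the Idua allele nor the number of donor mice is stated in the sources used. The labels call the replicates biological, and if they were not separate cultures the p values would measure only the spread between these arrays.

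Glycosaminoglycans (GAGs) are long, mostly sulphated sugar chains that lysosomes take apart from the free end. Each enzyme carries out 1 kind of step, mostly the removal of a sugar or sulphate group. A missing enzyme thus stops the breakdown at its step and undegraded fragments accumulate. Heparan sulphate (HS) needs the products of Idua, Ids, Sgsh, Naglu, Hgsnat and Gusb, dermatan sulphate (DS) those of Idua, Ids, Arsb and Gusb, and keratan sulphate (KS) those of Galns and Glb1. Many lysosomal genes are transcriptional targets of TFEB and its relatives, which bind E-box sequences of the form CACGTG near the start site.

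The promoter windows of Naglu and Sgsh, both of which rose, and of Gusb, which fell, are printed as examples of windows with and without an E-box. They were picked with direction and motif known, so no link between them is read from these 3. Each window runs from 250 bases before to 50 bases after the start site in the RefSeq annotation of GRCm38.p6, 5′ to 3′ on the gene's strand, with CACGTG in capitals.
Sgsh (chr11:119355461-119355760, minus strand): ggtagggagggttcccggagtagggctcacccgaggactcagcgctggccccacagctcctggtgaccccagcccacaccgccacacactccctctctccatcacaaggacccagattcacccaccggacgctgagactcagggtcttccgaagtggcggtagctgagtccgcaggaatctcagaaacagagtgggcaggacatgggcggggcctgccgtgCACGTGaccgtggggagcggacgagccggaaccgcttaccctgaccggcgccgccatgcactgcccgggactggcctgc
Naglu (chr11:101069844-101070143, plus strand): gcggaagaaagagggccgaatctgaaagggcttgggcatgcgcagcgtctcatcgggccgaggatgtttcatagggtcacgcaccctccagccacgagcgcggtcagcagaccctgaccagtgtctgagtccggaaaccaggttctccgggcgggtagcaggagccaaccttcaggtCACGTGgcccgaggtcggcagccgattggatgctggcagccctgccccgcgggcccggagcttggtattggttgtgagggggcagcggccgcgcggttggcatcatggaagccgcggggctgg
Gusb (chr5:130003000-130003299, minus strand): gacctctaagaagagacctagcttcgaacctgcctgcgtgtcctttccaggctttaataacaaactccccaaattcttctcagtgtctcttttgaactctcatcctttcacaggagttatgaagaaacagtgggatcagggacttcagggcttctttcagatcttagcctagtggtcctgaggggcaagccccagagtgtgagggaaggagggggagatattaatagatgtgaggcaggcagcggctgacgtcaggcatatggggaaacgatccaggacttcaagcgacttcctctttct

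Windows were at hand for 7 of the 9 members (not for Hgsnat and Galns). CACGTG, which reads the same on both strands, occurred in the windows of Sgsh, Naglu and Glb1, beginning at -29 from the start site in Sgsh, at -73 in Naglu and at -48 in Glb1. It was not found in the windows of Idua, Ids, Arsb and Gusb. Hgsnat, with the largest rise among the members, has no window here. The differences of Idua were above 0 in all 6 conditions and those of Ids in 5, and none of them passed the test. Whether motif and direction go together was not tested. Over all 32851 windows, 7.15% held CACGTG. The longer form TCACGTGA, in which CACGTG is nested, was found in none of the 7 windows and in 0.974% of all windows. A match is a description of the sequence and no evidence of binding.

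The values are log2 signals, normalized across arrays, so that a difference of 1 is a fold change of 2. All arrays entered 1 limma fit, and genes are said to rise or fall at a p under 0.05 after Benjamini-Hochberg adjustment across the 22206 clusters. The median standard error of a log2 difference was 0.187, and with 2 arrays per group small differences were not detectable. Replicate arrays had r of 0.995 to 0.997 across clusters. The negative control probe sets had medians of 6.47 to 6.83 and 95th percentiles of 10.4 to 10.8. All 8 members lay above that median on all 16 arrays, and above the 95th percentile on all 16 arrays except Gusb (14 of 16 arrays) and Idua and Galns (0 of 16), whose signals are therefore the nearest to background. Of 9 fibroblast markers, 7 lay above the 95th percentile on all arrays, and the mean signal of the 9 was 13.9 to 14.3 in the treated groups and 14.3 to 14.4 in the DMSO groups. Of the 9, 5 fell with 120 µM G (list median -0.48), 3 with 120 µM K (-0.16) and 2 with each mixture (-0.27 at 60 µM and -0.17 at 120 µM), while with 60 µM K 1 rose and 1 fell and with 60 µM G 0 passed in limma. Over all clusters 7.8% fell with 120 µM G, 8% with 120 µM K, and 8.57% and 9.48% with the 60 and 120 µM mixtures. With 60 µM K 5.72% rose and 4.4% fell, and with 60 µM G 3.84% and 4.48%. Thy1 fell by 1.11 with 120 µM G, by 0.96 with 120 µM K and by 1.01 and 1.46 with the low and high mixture, and Pdgfra fell with 120 µM G by 1.00 and rose with 60 µM K by 0.91. Pdgfra lay above the 95th percentile on 6 of 16 arrays. None of the 6 macrophage, 6 keratinocyte, 4 endothelial, 3 muscle or 4 melanocyte markers lay above the 95th percentile on any array. This does not show absence, since Idua, Galns and the fibroblast marker Lum also lay above it on 0 of 16 arrays. Mlana (melanocyte) lay above the negative control median on 16 of 16 arrays, and Lyz2 and Cd14 (macrophage) on 13. The endothelial marker Kdr did so on 1 array, and the other markers of these cell types on none. Whether the shifts of the markers play a part in the results of the members was not tested. RNA from the whole culture cannot tell less RNA per cell from fewer cells of a kind.

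**Figure D1:**
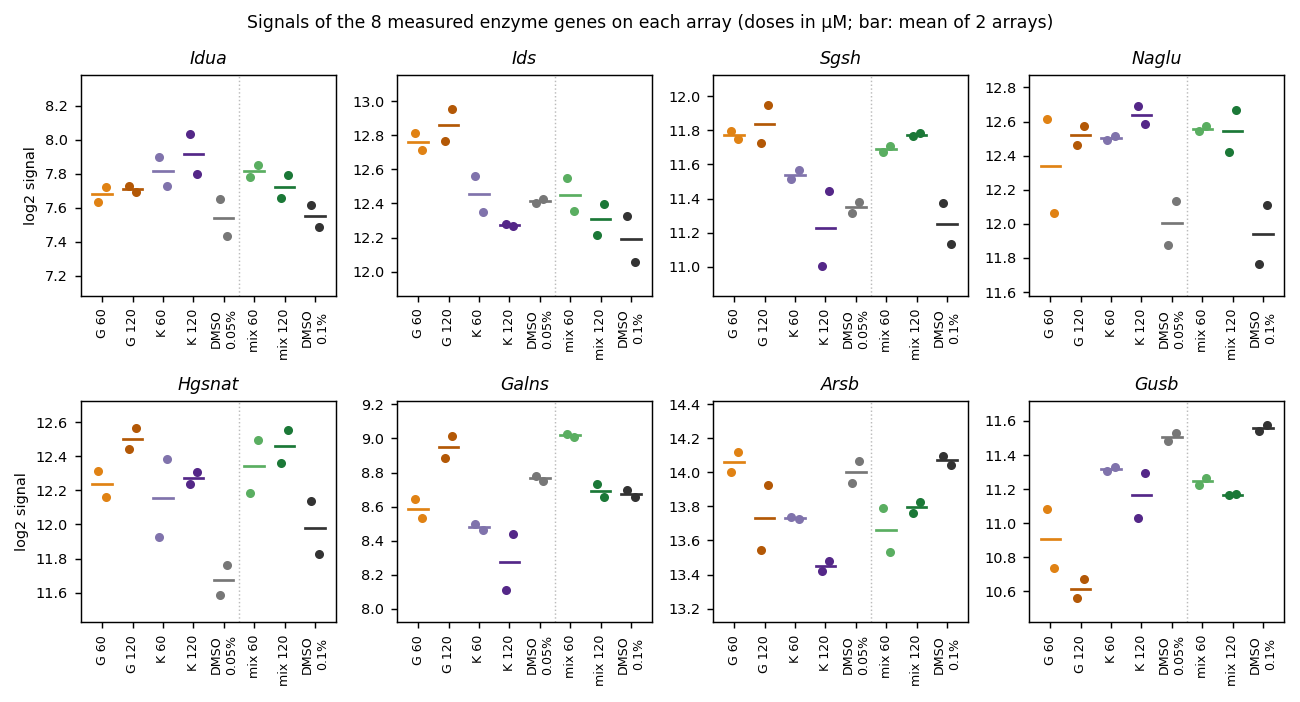
Log2 signal (vertical axis) of the 8 measured enzyme genes on each of the 16 arrays, by group (horizontal axis, doses in µM), with a bar at the mean of the 2 arrays; each panel spans 1.3 log2 units around its own gene. A dotted line separates G and K with their 0.05% DMSO control from the mixtures with their 0.1% DMSO control, and the 2 arrays with 120 µM G carry the lowest Gusb signals (10.56 and 10.67).

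Idua encodes alpha-L-iduronidase, the enzyme deficient in MPS I itself, which removes iduronic acid from HS and DS. Its log2 signals were 7.64 and 7.72 with 60 µM G, 7.73 and 7.69 with 120 µM G, 7.90 and 7.73 with 60 µM K and 8.03 and 7.80 with 120 µM K, against 7.65 and 7.43 with 0.05% DMSO. With the mixtures they were 7.78 and 7.85 at 60 µM and 7.66 and 7.79 at 120 µM, against 7.62 and 7.49 with 0.1% DMSO. All 6 mean differences were above 0, with fold changes of 1.10 to 1.29, but none of them passed (limma, adjusted p = 0.0939 to 0.635). The largest difference was with 120 µM K, 0.37 with a standard error of 0.14. In the order of the group means, 6 of the 7 neighbouring groups overlapped, and both DMSO groups stood at the low end. Since neither the allele nor the position of the probes is stated, the Idua signal is no check of the genotype.

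Ids, the gene of iduronate-2-sulphatase that is lost in MPS II, acts on HS and DS one step before Idua. Ids signals were 12.81 and 12.71 with 60 µM G, 12.77 and 12.96 with 120 µM G, 12.56 and 12.35 with 60 µM K and 12.28 and 12.27 with 120 µM K, against 12.40 and 12.43 with 0.05% DMSO. In the mixtures they were 12.55 and 12.35 at 60 µM and 12.22 and 12.40 at 120 µM, against 12.32 and 12.06 with 0.1% DMSO. The 4 arrays with G alone were thus above every other array of the study. Against DMSO, however, no condition passed the test, and 120 µM G came nearest (0.45 with a standard error of 0.15, limma adjusted p = 0.0563). That difference passed with 0.1% DMSO as its control (0.67, adjusted p = 0.00543), and the 60 µM G difference passed likewise (0.57, adjusted p = 0.0273).

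Sgsh, Naglu and Hgsnat act on HS alone and are the genes of MPS IIIA, IIIB and IIIC. Sgsh encodes the sulphamidase that removes the N-sulphate of glucosamine. Its signals were 11.80 and 11.75 with 60 µM G, 11.73 and 11.95 with 120 µM G, 11.51 and 11.57 with 60 µM K and 11.00 and 11.45 with 120 µM K, against 11.32 and 11.38 with 0.05% DMSO. With the mixtures it had 11.67 and 11.71 at 60 µM and 11.77 and 11.78 at 120 µM, against 11.37 and 11.13 with 0.1% DMSO. The arrays with G, a mixture or 60 µM K all lay above both DMSO groups, whereas those with 120 µM K overlapped them. Sgsh rose with 120 µM G by 0.49 (standard error 0.16, a fold change of 1.41, limma adjusted p = 0.0494) and with the 120 µM mixture by 0.52 (0.16, a fold change of 1.44, adjusted p = 0.0317). The first call was lost without any 1 of its 4 arrays (adjusted p = 0.0666 to 0.273) and with the replicate number as a block (adjusted p = 0.0536). The second was kept without replicate 1 of 0.1% DMSO (adjusted p = 0.0337) and lost without each of the other 3 arrays (up to 0.201) and against 0.05% DMSO (0.087).

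Naglu encodes alpha-N-acetylglucosaminidase. Its signals were 12.61 and 12.07 with 60 µM G, 12.46 and 12.58 with 120 µM G, 12.49 and 12.52 with 60 µM K and 12.69 and 12.59 with 120 µM K, against 11.88 and 12.14 with 0.05% DMSO. With the mixtures they were 12.55 and 12.57 at 60 µM and 12.42 and 12.67 at 120 µM, against 11.76 and 12.11 with 0.1% DMSO. Both DMSO groups lay below all treated arrays but 1, replicate 2 of 60 µM G. Naglu rose with 120 µM K by 0.63 (standard error 0.19, a fold change of 1.55, limma adjusted p = 0.0306), with the 60 µM mixture by 0.62 (a fold change of 1.54, adjusted p = 0.0333) and with the 120 µM mixture by 0.61 (a fold change of 1.52, adjusted p = 0.0344). With 60 and 120 µM G and 60 µM K its fold changes were 1.26, 1.43 and 1.41 and did not pass (adjusted p = 0.312, 0.0806 and 0.118). Each of the 3 calls rested on its arrays: the K call was kept without replicate 2 of 0.05% DMSO only (adjusted p = 0.0496, otherwise up to 0.195), and the calls of the 60 and 120 µM mixtures without replicate 2 of 0.1% DMSO only (adjusted p = 0.0334 and 0.0322, otherwise up to 0.195 and 0.219). Against 0.05% DMSO the mixtures had adjusted p = 0.0706 at 60 µM and 0.0675 at 120 µM.

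Hgsnat encodes the acetyltransferase of the lysosomal membrane that prepares glucosamine for the enzyme made from Naglu. Its signals were 12.32 and 12.16 with 60 µM G, 12.44 and 12.56 with 120 µM G, 11.93 and 12.38 with 60 µM K and 12.24 and 12.31 with 120 µM K, against 11.59 and 11.76 with 0.05% DMSO. With the mixtures it had 12.19 and 12.49 at 60 µM and 12.36 and 12.56 at 120 µM, against 12.14 and 11.82 with 0.1% DMSO. Every treated array lay above its own control, but the DMSO groups also did not overlap, with a difference of 0.31 (0.1% minus 0.05% DMSO, adjusted p = 0.647). Hgsnat rose with 120 µM G by 0.83 (standard error 0.18, a fold change of 1.78, limma adjusted p = 0.00547) and with 120 µM K by 0.60 (0.18, a fold change of 1.51, adjusted p = 0.0337). With 0.1% DMSO as the control these differences were 0.52 (adjusted p = 0.056) and 0.29 (adjusted p = 0.301). The G call was lost without replicate 1 of 0.05% DMSO (adjusted p = 0.0534) and kept without each of the other 3 arrays, and the K call was lost without any 1 of its 4 arrays (adjusted p = 0.0712 to 0.178). The mixtures had fold changes of 1.28 and 1.39 at 60 and 120 µM (adjusted p = 0.192 and 0.0784), and with 0.05% DMSO as their control both passed (adjusted p = 0.0248 and 0.00789).

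Galns, the gene of MPS IVA, encodes the sulphatase that removes sulphate from KS and chondroitin sulphate (CS). Its signals were 8.65 and 8.53 with 60 µM G, 8.89 and 9.01 with 120 µM G, 8.50 and 8.46 with 60 µM K and 8.11 and 8.44 with 120 µM K, against 8.78 and 8.75 with 0.05% DMSO. With the mixtures they were 9.03 and 9.01 at 60 µM and 8.73 and 8.65 at 120 µM, against 8.70 and 8.66 with 0.1% DMSO. K arrays were all below the DMSO arrays, while those of 120 µM G and the 60 µM mixture were all above them. Galns fell with 120 µM K by 0.49 (standard error 0.14, a fold change of 0.712, limma adjusted p = 0.0240). The call was kept without replicate 2 of 120 µM K (adjusted p = 0.0126), lost without each of the other 3 arrays (up to 0.211), and lost with 0.1% DMSO as the control (adjusted p = 0.0594). In the order of means 2 of its 7 neighbouring groups overlapped, as many as for Gusb.

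Arsb encodes arylsulphatase B, which removes sulphate from DS and CS and is lost in MPS VI. Its signals were 14.00 and 14.12 with 60 µM G, 13.54 and 13.92 with 120 µM G, 13.74 and 13.73 with 60 µM K and 13.42 and 13.48 with 120 µM K, against 13.94 and 14.06 with 0.05% DMSO. With the mixtures it had 13.79 and 13.53 at 60 µM and 13.76 and 13.83 at 120 µM, against 14.09 and 14.05 with 0.1% DMSO. Apart from 60 µM G, every treated array lay below the DMSO arrays of its comparison. Arsb fell with 120 µM K by 0.55 (standard error 0.15, a fold change of 0.682, limma adjusted p = 0.0209). This call was lost without any 1 of its 4 arrays (adjusted p = 0.0526 to 0.130). With the 60 µM mixture the fold change was 0.754 (adjusted p = 0.0788).

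Gusb encodes beta-glucuronidase, which removes glucuronic acid from HS, DS and CS and is lost in MPS VII. Its signals were 11.08 and 10.74 with 60 µM G, 10.56 and 10.67 with 120 µM G, 11.30 and 11.33 with 60 µM K and 11.03 and 11.30 with 120 µM K, against 11.48 and 11.53 with 0.05% DMSO. With the mixtures they were 11.22 and 11.27 at 60 µM and 11.16 and 11.17 at 120 µM, against 11.54 and 11.57 with 0.1% DMSO. Every treated array lay below every DMSO array, and G alone at 120 µM gave the lowest signals. The arrays below the 95th percentile of the negative controls were replicate 2 of 60 µM G and replicate 1 of 120 µM G. Gusb fell with 60 µM G by 0.60 (standard error 0.15, a fold change of 0.662, limma adjusted p = 0.0220) and with 120 µM G by 0.89 (0.15, a fold change of 0.540, adjusted p = 7.23e-04). The 120 µM call was kept without any 1 of its 4 arrays (adjusted p = 0.0053 to 0.00991) and under all 9 other settings tried. The 60 µM call was kept without replicate 1 of 60 µM G (adjusted p = 0.0191) and lost without each of the other 3 arrays (up to 0.178). K and the mixtures had fold changes of 0.763 to 0.878 that did not pass (adjusted p = 0.0756 to 0.509).

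**Figure D2:**
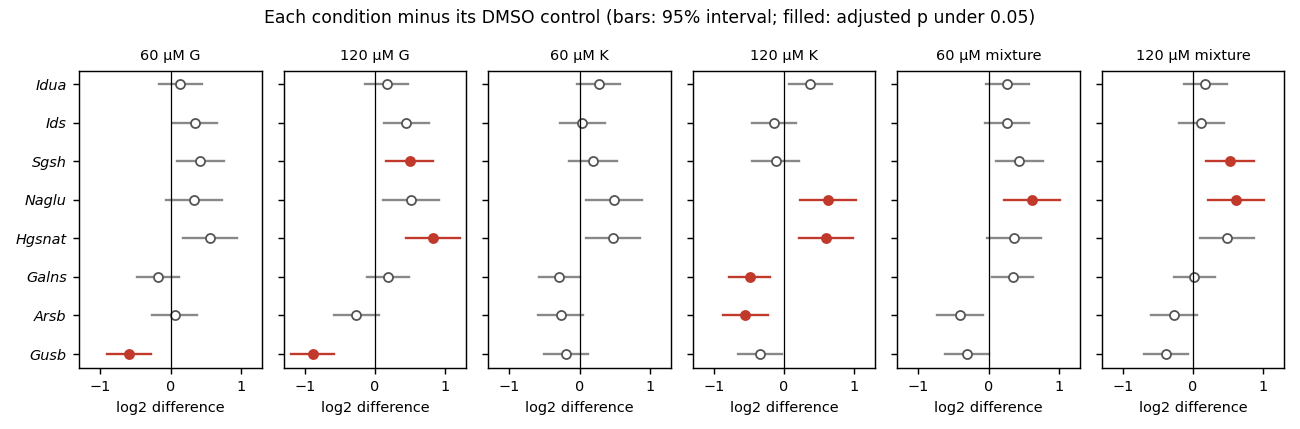
Log2 difference of each condition from its DMSO control (horizontal axis) for the 8 genes (vertical axis), with 95% intervals from the limma fit; filled points passed at an adjusted p under 0.05. Naglu and Hgsnat lie right of 0 in all 6 panels and Gusb left of it in all 6, furthest with 120 µM G (-0.89).

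Members were counted over the 8 that were measured. With 60 µM G, 0 members rose and 1 fell (Gusb), where 3.84% of all clusters rose and 4.48% fell. With 120 µM G, 2 rose (Sgsh and Hgsnat) and 1 fell (Gusb), beside 7.94% and 7.8% of all clusters. With 60 µM K no member passed in limma (2 had an unadjusted p under 0.05, and a trended and robust prior called 2), beside 5.72% rising and 4.4% falling. With 120 µM K, 2 rose (Naglu and Hgsnat) and 2 fell (Galns and Arsb), beside 8.98% and 8%. The 60 µM mixture raised 1 (Naglu) and lowered 0, beside 9.23% and 8.57%, and the 120 µM mixture raised 2 (Sgsh and Naglu) and lowered 0, beside 10.1% and 9.48%. Over 8 genes, counts this small are not read as above or below these percentages. The percentages also take in clusters near background. Among the 11103 brighter clusters, which include all 8 members, a separate fit called 2771 to 4560 over the 6 conditions.

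The median log2 difference of the members was 0.24 at 60 µM and 0.32 at 120 µM for G, 0.12 and -0.13 for K, and 0.30 and 0.15 for the mixture. The median over all clusters lay between -0.04 and 0.01, and among the 11103 brighter clusters between -0.008 and 0.062. The all-cluster value is an unlike background, since the median signal per array (6.54 to 6.63) was near that of the negative controls. By the fold change criterion of the study's methods (above 1.3 or below 0.7, with no test), 3, 5, 2, 3, 2 and 3 members qualified in the same order. Over all clusters 20.3%, 24%, 19.2%, 25.3%, 27.2% and 28.5% did. The share by this criterion among brighter clusters was not counted.

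No member differed between the doses in limma. For 120 µM against 60 µM G, 2 members had an unadjusted p under 0.05 (Galns, 0.36 higher at 120 µM, and Arsb, with a difference of -0.33), and 3.54% of all clusters passed. For K, 0 members had such a p and 0.27% of clusters passed. For the mixture 1 member had one (Galns, with a difference of -0.33) and 0% of clusters passed. Galns therefore had a higher mean at 120 µM than at 60 µM with G and a lower one with the mixture, and the 2 dose steps were not tested against each other.

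The compounds are an isoflavone (G) and a flavonol (K): the B ring of K is attached to the carbon next to the ring oxygen, that of G to the neighbouring carbon, and K carries a further hydroxyl group. At 120 µM, K and G differed past the test in 4 of the 8 members, of which K was higher in 1 (5.21% of all clusters) and lower in 3 (4.57%). Galns was lower with K, with 8.11 and 8.44 against 8.89 and 9.01 with G, a difference of -0.67 (standard error 0.14, limma adjusted p = 0.00598). Sgsh differed by -0.61 (0.16, adjusted p = 0.0239), with 11.00 and 11.45 with K against 11.73 and 11.95 with G. For Ids the arrays had 12.28 and 12.27 with K against 12.77 and 12.96 with G, a difference of -0.59 (0.15, adjusted p = 0.0210). The K and G arrays overlapped in none of the 8 members, so a lack of overlap does not mark these 3 genes. The share of all clusters without overlap was not counted, so this count is not read as a result about the members. Gusb was higher with K, at 11.03 and 11.30 against 10.56 and 10.67 with G, and the difference was 0.55 (0.15, adjusted p = 0.0280).

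The other 4 members did not pass between 120 µM K and G, which does not show that the compounds acted alike on them. Their log2 differences, K minus G, were 0.21 for Idua (95% interval -0.10 to 0.51), 0.12 for Naglu (-0.28 to 0.52), -0.23 for Hgsnat (-0.61 to 0.16) and -0.28 for Arsb (-0.61 to 0.04). All 4 calls depended on single arrays. The Galns call was lost without replicate 2 of 120 µM G (adjusted p = 0.0556) or replicate 1 of 120 µM K (0.0744), and the Sgsh call without the same arrays (0.162 and 0.221). The Ids call was kept without replicate 1 of 120 µM G only (adjusted p = 0.0466, otherwise up to 0.143), and the Gusb call without replicate 1 of 120 µM K only (0.0347, otherwise up to 0.182). Of the 6 macrophage markers, which all lay below the 95th percentile of the negative controls, Lyz2 alone passed, lower with 120 µM K than with G and lower than DMSO with both doses of K (-1.21 with 60 µM K, and not well above background with 120 µM K). The list medians were -0.14 for 120 µM K against G and 0.04 for 120 µM K against DMSO. The fibroblast marker Pdgfra was higher with 120 µM K than with G by 1.52, and the muscle marker Des passed as lower while not well above background in either group. The mean of the 6 macrophage markers was 5.24 to 5.96 in the treated groups and 5.67 to 5.81 in the DMSO groups, and their part in these results was not tested. At 60 µM, where 8.17% of all clusters differed between K and G, no member passed in limma and 2 had an unadjusted p under 0.05: Gusb with a difference of 0.41 (adjusted p = 0.106) and Arsb with -0.33 (adjusted p = 0.214).

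The 120 µM mixture differed from 120 µM G in 2 members, 1 higher (4.53% of all clusters) and 1 lower (2.8%). The solvent share may differ between these groups, as the methods give 0.1% DMSO for mixtures and 0.05% for single flavonoids. Between the DMSO groups themselves Ids differed by -0.22 (0.1% minus 0.05% DMSO, limma adjusted p = 0.691). Gusb was higher, with 11.16 and 11.17 in the mixture against 10.56 and 10.67 with G (difference 0.55, standard error 0.15, limma adjusted p = 0.0329), and Ids was lower, with 12.22 and 12.40 against 12.77 and 12.96 (-0.55, 0.15, adjusted p = 0.0354). The arrays of the groups did not overlap for either gene, nor for Galns, which did not pass. How many of all clusters lacked overlap here was not counted either. Both calls were lost without any 1 of their 4 arrays, with adjusted p of 0.0932 to 0.180 for Gusb and 0.0689 to 0.248 for Ids. Against 120 µM K, 0 members passed in limma, 3 had an unadjusted p under 0.05 and 0.684% of all clusters passed. These were Sgsh, Galns and Arsb, all higher in the mixture by 0.55, 0.42 and 0.34 (adjusted p = 0.144, 0.212 and 0.381). For Gusb the mixture and K differed by 0.01 (95% interval -0.31 to 0.32) and for Ids by 0.04 (-0.28 to 0.35).

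In the 60 µM mixture no member differed from 60 µM G (7.35% of all clusters passed) or from 60 µM K (0.0901%) in limma, and 3 and 1 members had an unadjusted p under 0.05. Galns was common to both, with 9.03 and 9.01 in the mixture against 8.65 and 8.53 with G and 8.50 and 8.46 with K. Its differences were 0.43 from G (standard error 0.14, adjusted p = 0.0764) and 0.54 from K (0.14, adjusted p = 0.214), and its mixture arrays overlapped neither. The solvent controls, 0.1% against 0.05% DMSO, differed in no member (0 with an unadjusted p under 0.05) and in 0.0045% of all clusters.

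**Figure D3:**
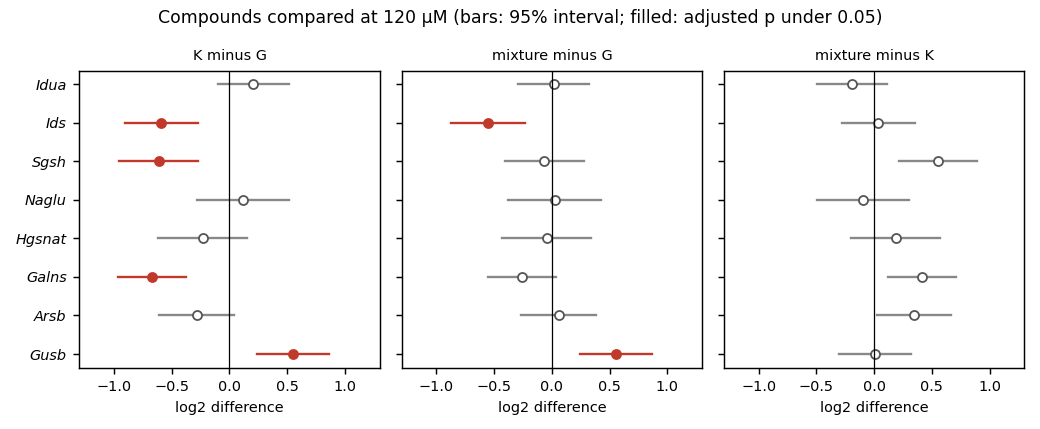
Log2 differences between the 120 µM groups (horizontal axis) for the 8 genes (vertical axis), with 95% intervals from the limma fit and filled points at an adjusted p under 0.05. K minus G is filled for Ids, Sgsh, Galns and Gusb, mixture minus G for Ids and Gusb, and mixture minus K for none.

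Across the 16 arrays the members did not move as 1 group. Over their 28 pairs Pearson's r lay between -0.75 and 0.68 with a median of 0.11, as a description only, since the arrays share groups and 1 normalization. Naglu and Hgsnat, which act on successive steps of HS breakdown, had r = 0.68, and Ids and Sgsh r = 0.67. The lowest values were those of Idua with Arsb (-0.75) and Ids with Gusb (-0.73). Among 10908 clusters above the mean negative control median, the signal most like that of Gusb was that of Rnf26 (r = 0.95), followed by Trip13 (0.95), which acts in meiotic and mitotic chromosome checkpoints, and Nacc1 (0.95). Ids was most like Gpx4 (0.92), a glutathione peroxidase that reduces lipid peroxides, and Sgsh most like Tmem126b (0.93), an assembly factor of mitochondrial complex I. For Naglu it was Homer3 (0.93), for Hgsnat Frrs1 (0.93), for Arsb Arhgap18 (0.92), for Idua Dchs1 (0.86) and for Galns Mcam (0.86). Galns was next most like both clusters of Atp6v0c (0.83 and 0.83), which encodes a membrane subunit of the proton pump of lysosomes. These likenesses too are a description only. They were picked as the highest r among 10908 clusters over 16 arrays in 8 groups, and a shared function was not tested.

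Of the other enzymes of GAG breakdown described here, Hyal1, the hyaluronidase whose loss causes MPS IX, rose in all 6 conditions. Its mean log2 signal was 11.68 and 12.54 at the low and high dose of G and 11.58 and 11.85 at those of K, against 10.41 with 0.05% DMSO, and 12.03 and 12.17 with the mixtures, against 9.95 with 0.1% DMSO. These are fold changes of 2.41, 4.38, 2.24, 2.71, 4.21 and 4.65 (limma, adjusted p = 6.59e-07 to 3.09e-04). Gm2a, a lipid-binding activator protein of lysosomal glycolipid breakdown, rose with the 60 µM mixture (log2 difference 0.73, adjusted p = 0.0266). Arsg, Arsk, Hexa, Hpse and Hyal2 passed in no condition.

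Genes that mature, protect and deliver the enzymes were all measured (11 of 11). Of these 3, 5, 2, 2, 3 and 3 rose and 0, 0, 0, 1, 1 and 1 fell in the order G, K, mixture, each at 60 and then 120 µM, with list medians of 0.28, 0.43, 0.16, 0.15, 0.18 and 0.21. Over all clusters 3.84%, 7.94%, 5.72%, 8.98%, 9.23% and 10.1% rose and 4.48%, 7.8%, 4.4%, 8%, 8.57% and 9.48% fell. Sort1, encoding the sorting receptor sortilin, rose in all 6 conditions, with fold changes of 1.78, 1.96, 1.97, 2.13, 3.02 and 3.57. Neu1, a sialidase that forms a complex with beta-galactosidase and cathepsin A, also rose in all 6, with log2 differences of 1.04, 1.58, 0.68, 0.82, 1.14 and 1.20. Gnptg, a subunit of the enzyme that makes the mannose-6-phosphate tag, rose with 60 and 120 µM G only (log2 differences 0.81 and 0.90). Nagpa, which uncovers that tag, fell with 120 µM K and with the 60 and 120 µM mixtures (-0.63, -0.51 and -0.88). M6pr, a receptor of the tag, and Scarb2, the receptor of glucocerebrosidase, made up the remaining calls and were named after their values were seen. Sumf1, whose product activates all sulphatases, including those of Ids, Sgsh, Galns and Arsb, passed in no condition, with log2 differences of 0.03 to 0.31.

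**Figure D4:**
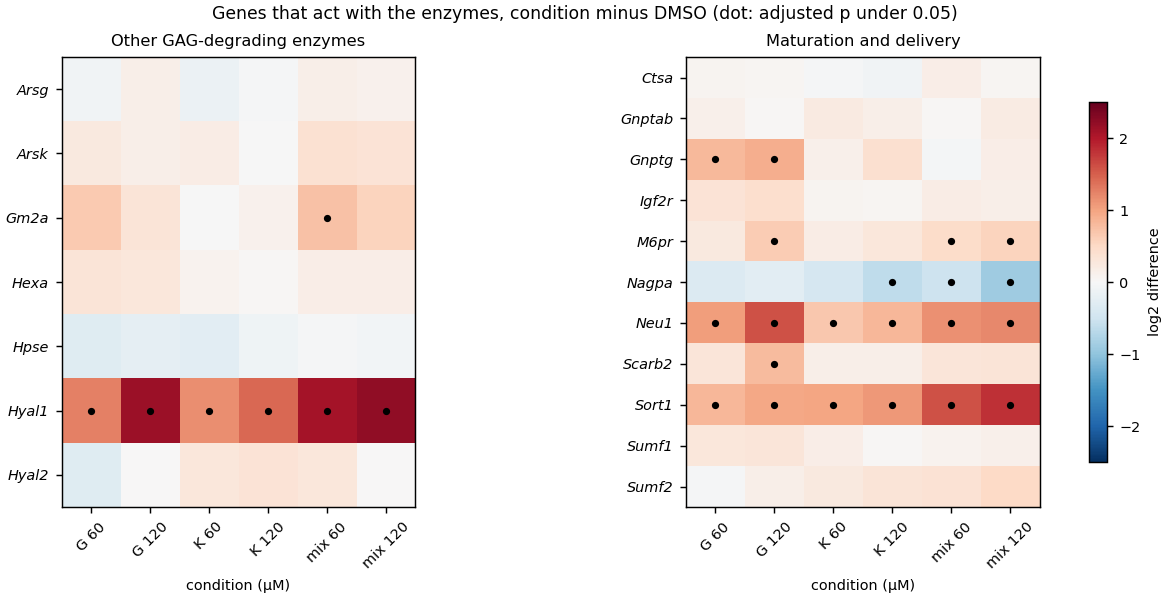
Log2 difference from the DMSO control (colour) of 7 further GAG-degrading enzymes and 11 genes of enzyme maturation and delivery (rows) in the 6 conditions (columns, doses in µM), with a dot where the adjusted p was under 0.05. Hyal1, Neu1 and Sort1 carry a dot in all 6 columns, and Nagpa is the only gene with a dot on a negative difference.

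Of the 7 paralogs of the members measured, 0, 1, 0, 0, 2 and 1 rose and 0, 1, 2, 2, 1 and 1 fell in the same order, with list medians of -0.04, -0.29, 0.01, -0.02, 0.25 and 0.12. Arsj, a paralog of Arsb, fell in every condition but 60 µM G, with fold changes of 0.198 to 0.496, against 0.666 with 60 µM G (adjusted p = 0.0531). It lay above the negative control median on all 16 arrays but above the 95th percentile on 0, with a lowest signal of 6.83, so that its low groups are near background and these folds are uncertain. Arsa, the sulphatase of sulphatide, rose with the 60 and 120 µM mixtures (log2 differences 0.73 and 0.57), and Sts, steroid sulphatase, with 120 µM G (0.79). Glb1l3 passed with both doses of K but lay below the negative control median on all arrays, so no fold is given. Of the 4 MiT transcription factors, the family of TFEB, Tfeb and Tfe3 passed in no condition. Tfeb lay above the negative control median on only 2 of 16 arrays, so that a fall in it, or a small rise, was not detectable here. Mitf rose with 60 and 120 µM K and the 60 and 120 µM mixtures (1.01, 1.23, 1.32 and 1.49), and had log2 differences of 0.18 and -0.15 with 60 and 120 µM G. Tfec rose in the same 4 conditions (0.80, 0.56, 0.91 and 0.94) and fell with 120 µM G by 1.09, with signals above the negative control median on 15 of 16 arrays and above the 95th percentile on 0. B2m and Gapdh, used for reference in the study, passed in no condition.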

How the data were processed

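Clariom S mouse arrays, 16 in all, were hybridised with RNA from the cells. Per the submitters' notes, the authors used Expression Console, Transcriptome Analysis Console and RMA. Deposited values are log2 signals, background-corrected, normalized across arrays and summarized per transcript cluster by RMA (sst-rma in the column names). Versions and genome build: not given in the sources used. The methods state 3 biological replicates, and 2 arrays per group were analysed. Of 28846 probe sets, 6640 were controls, 5222 of them negative.

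Groups came from the sample titles. Differences were tested in R 4.3.3 by limma 3.58.1, fitted with a mean for each group (8 residual and 5.81 prior degrees of freedom), in 16 comparisons, and the procedure was tested on simulated data. The members and lists were chosen with earlier results of these data known. All members are named, up to 4 genes per list (the largest differences that passed in a condition), and the 3 most similar clusters per member by Pearson's r. Accessions of 8 members matched the RefSeq table. Deviations of same-numbered arrays from their group means correlated with r of -0.136 to 0.142, so the numbers were not treated as pairs. Other controls, scalings, filters, priors, sample sets, call rules and tables were tried. Some listed genes are not reported here.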

Additional observations from a re-analysis of the deposited data

Results flagged for a closer look

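The 120 µM groups of K and G differed from each other, by a test of the difference itself, in 4 members. The log2 difference, K minus G, was -0.59 for Ids, -0.61 for Sgsh, -0.67 for Galns and 0.55 for Gusb (limma, adjusted p = 0.0210, 0.0239, 0.00598 and 0.0280). Both groups had been compared with the same 0.05% DMSO arrays.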

How the results depend on the processing

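The number of members called depended on the arrays, the control and the prior more than on the scaling. With both DMSO groups pooled, limma called 3, 5, 1, 5, 2 and 4 members with 60 and 120 µM G, 60 and 120 µM K and the 60 and 120 µM mixture. Among the 11103 brighter clusters it called 3, 5, 0, 5, 4 and 4, with a trended and robust prior 2, 5, 2, 4, 3 and 4, and in fits of only the 4 arrays compared 0, 2, 0, 0, 0 and 0. With the other DMSO group as control it called 2, 4, 0, 2, 1 and 1. The calls over all clusters moved too: over the 6 conditions they numbered 1848 to 4350 in the fit reported, 2574 to 4606 with pooled controls, 2771 to 4560 among brighter clusters, 2734 to 5035 with the trended prior and 701 to 2866 with 4 arrays. The fold change criterion took 3, 5, 2, 3, 2 and 3. Leaving out 1 array gave 0 to 1, 1 to 2, 0, 0 to 1, 0 to 1 and 0 to 1.

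Between 120 µM groups, fits of 4 arrays called 0 for K against G and 0 for the mixture against G, and leaving out 1 array gave 0 to 3 and 0. The brighter clusters gave 1 for K against G at 60 µM, 1 for the mixture against G at 60 µM and 1 for the mixture against K at 120 µM, and the trended prior 1 for each of the last 2. With the replicate number as a block, the counts were 1, 2, 0, 4, 1 and 2 for the 6 conditions and 4 for K against G at 120 µM. Only Sgsh with 120 µM G lost its call (adjusted p = 0.0536). Nothing in the labels or methods pairs the arrays by number. The 95th percentile of the negative controls was nevertheless higher on replicate 1 than on replicate 2 in every group but 60 µM G.

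The counts that follow take each single difference once per setting, and those called in neither fit are among the kept. Under alternatives other than leaving out an array, 408 kept direction and call, 37 gained a call, 23 lost it and 6 changed sign. On leaving out an array 160 kept both, 49 lost the call and 7 changed sign, and none of those that changed sign had been called. Arsb with 60 µM G was -0.00968 against 0.1% DMSO and -0.00511 to 0.122 on leaving out an array. Ids with 60 µM K ranged from -0.0632 to 0.144 and Sgsh with 120 µM K from -0.343 to 0.0988. Ids with 120 µM K was 0.0812 against 0.1% DMSO. Ids with the 120 µM mixture was -0.107 against 0.05% DMSO and -0.016 to 0.251 on leaving out an array, and Galns there was -0.0746 against 0.05% DMSO, -0.029 against the pooled controls, -0.113 after renewed quantile normalization and -0.0222 to 0.0555 on leaving out an array. The cause was not tested, except that fewer arrays leave fewer degrees of freedom. Genes outside the members were not refitted one by one, and the search for the sulphatase signature in proteins was not run. Idua and Galns, below the 95th percentile of the negative controls, have the least certain fold changes.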
